A study of Mus musculus with 11 samples.

Results

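The 30 genes described here make sterols and fatty acids or control that synthesis, and they were picked from the deposited count table by gene symbol. The table holds 54513 genes, and all 30 were found in it and passed the filter on low counts. They comprise 18 enzymes of the route from acetyl-CoA to cholesterol, 5 regulators and carriers (Srebf2, Srebf1, Scap, Insig1 and Stard4) and 7 genes of fatty acid synthesis (Acly, Acaca, Fasn, Elovl6, Scd1, Scd2 and Me1). The libraries were made from colonic epithelial cells that had been passed over Percoll, a density medium, to take out lymphocytes. The 4 groups were DSS DKO (n = 3), DSS WT (n = 3), baseline DKO (n = 3) and baseline WT (n = 2). DKO mice carry deletions of 2 loci that encode the microRNA miR-181, miR-181a1-b1 and miR-181a2-b2, and WT mice carry neither deletion. DSS mice received 2% dextran sulphate sodium, a polymer that injures the colonic epithelium, for 7 days and had 2 days of recovery, and baseline mice were untreated. The labels give neither strain, age nor sex, do not say whether the deletion reaches every tissue, and call the libraries biological replicates without naming the mice, so the tests measure the spread between these libraries.

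Cells make cholesterol from acetyl-CoA through mevalonate, farnesyl pyrophosphate, squalene and lanosterol, and they make fatty acids from the same acetyl-CoA through malonyl-CoA. Both routes are driven by the SREBP transcription factors: Srebf2 encodes the form that acts chiefly on sterol genes and Srebf1 the forms that act chiefly on fatty acid genes. SCAP escorts the SREBPs from the endoplasmic reticulum to the Golgi for cleavage, and INSIG proteins hold SCAP back when sterols are plentiful. The intestine is, beside the liver, a main site of sterol synthesis in the body.

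Totals were 41631951 to 52761900 counts per library, and all values below are counts scaled to library size (CPM) with TMM factors. Differences were tested with edgeR's quasi-likelihood F-test on all 11 libraries, two-sided, with Benjamini-Hochberg adjustment over 19267 genes, and a gene was called at an adjusted p under 0.05. Fold changes are on the log2 scale, the first-named group over the other, with their SE. Every DSS library had a female and every baseline library a male pattern of sex-linked genes, with Xist at 633 to 906 CPM in DSS libraries and 6.75 to 14.5 CPM in baseline libraries. DSS and sex therefore cannot be told apart wherever DSS is set against baseline. The libraries also differed in the level of genes with GC-rich transcripts. The median log2 deviation of the tenth of genes richest in GC, taken from the mean of all libraries, was 0.27, -0.13 and -0.74 in DSS DKO replicates 1 to 3 and -0.05, -0.99 and -0.86 in DSS WT replicates 1 to 3, against 0.36 to 0.59 in baseline libraries. A fit with GC offsets, chosen after these values were seen, is given beside the results it changes.

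After DSS, members of both arms were lower in DKO than in WT. Of the 18 sterol enzymes 7 were called lower (Hmgcs1, Idi1, Sqle, Cyp51, Tm7sf2, Sc5d and Dhcr7), of the 5 regulators and carriers 1 (Stard4), and of the 7 fatty acid genes 5 (Acly, Acaca, Elovl6, Scd1 and Scd2), while 5.98% of all tested genes were lower. By edgeR 0 of the 30 were called higher (0 at an unadjusted p under 0.05 and 0 by DESeq2), while 5.26% of all tested genes were. With no filter on low counts Srebf2 (0.48, adjusted p = 0.0137) and Scap (0.75, adjusted p = 0.000331) were called higher. Acat2, Msmo1, Insig1 and Me1 were then also called lower (adjusted p from 0.000269 to 0.0251). The median log2 fold change was -0.47 for the sterol enzymes, 0.10 for the regulators and carriers and -0.61 for the fatty acid genes, beside 0.03 over all tested genes. In 19 of the 30 genes every DSS DKO library lay below every DSS WT library, and in 0 genes above, while 17.9% and 14% of all tested genes did so. In whole-epithelium RNA, fewer cells that express a gene and less of its RNA per cell cannot be told apart.

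**Figure D1:**
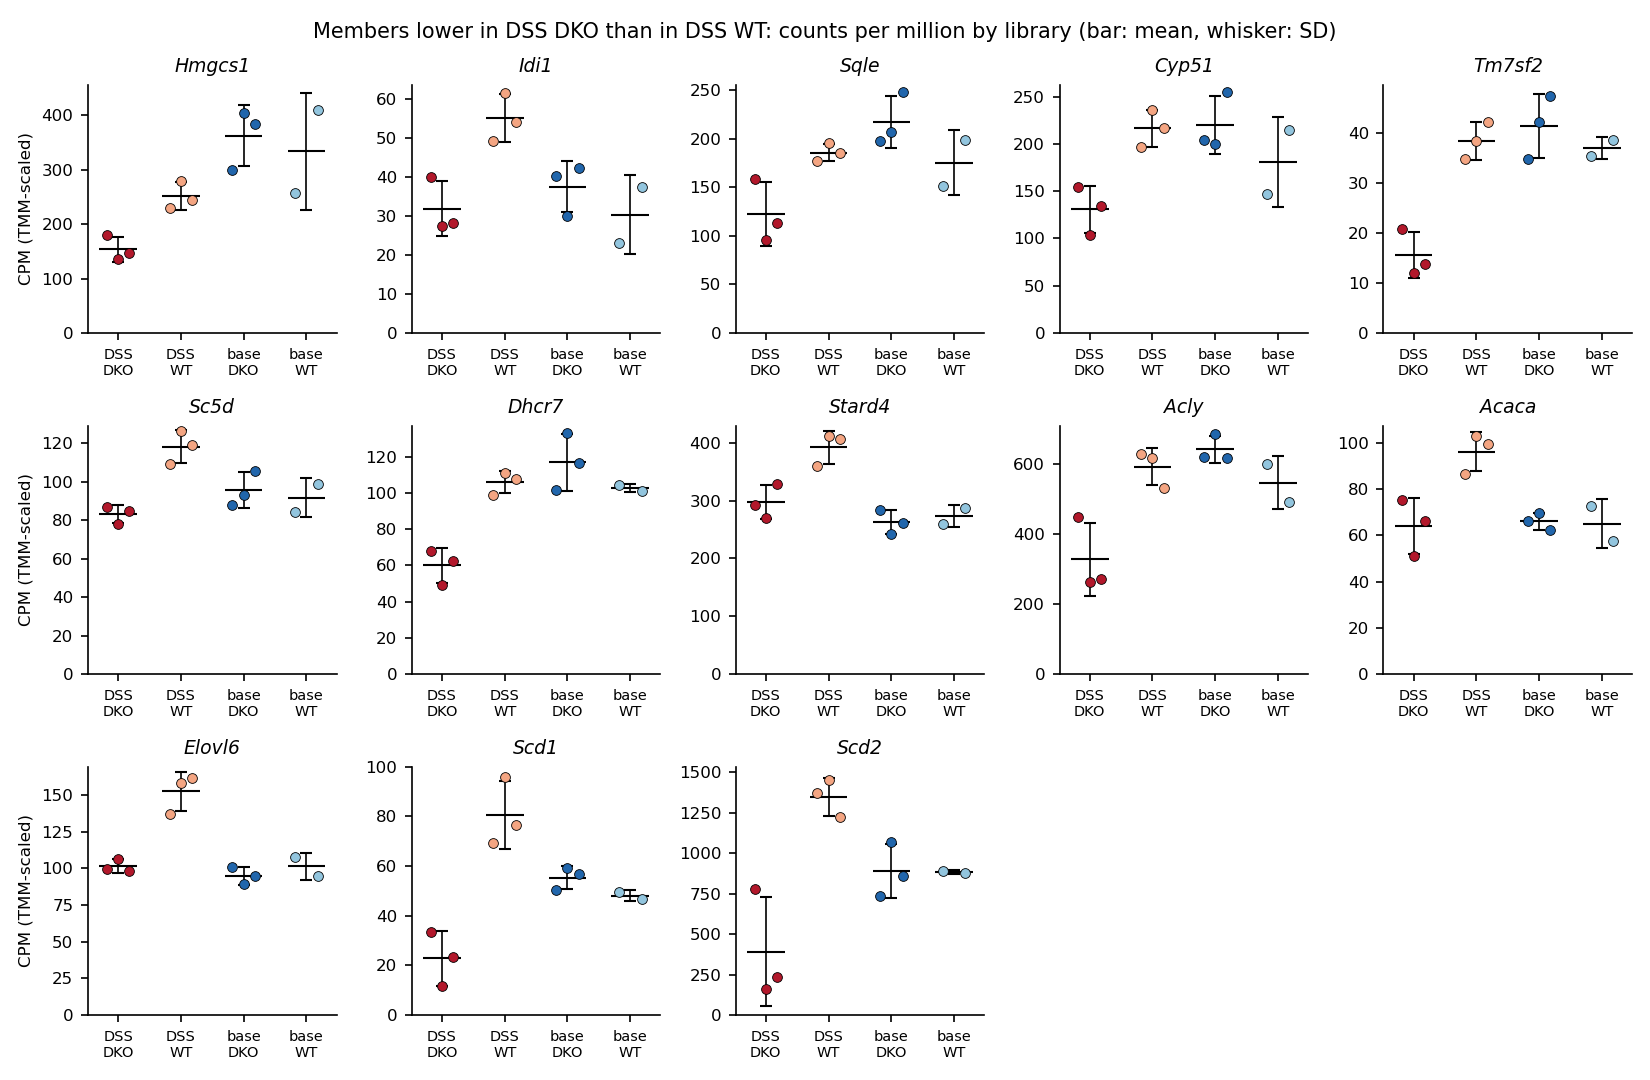
Level of the 13 members called lower in DSS DKO than in DSS WT, in CPM (vertical axes, starting at 0), with 1 point per library, the group mean as a bar and the SD as a whisker. In Tm7sf2 the 3 DSS DKO libraries lie at 12.0 to 20.8 CPM, below all libraries of the other groups, and in Scd2 DSS DKO replicate 1 lies apart from the other 2 DSS DKO libraries.

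The promoters of 24 members were found in RefSeq (GRCm38.p6), as the 250 bases before and 50 after each start. They were searched on both strands for TCACNCCAC, a form of the sterol regulatory element that SREBPs bind, for CCAAT, bound by NF-Y, which acts beside SREBPs, and for the E-box CACGTG and the GC box GGGCGG. TCACNCCAC was in 1 of the 24, Hmgcs1, and in 1.44% of the 27025 genes with a promoter in that table. CCAAT was in 20 of the 24 (83.3%; 14 of 15 sterol enzymes, 3 of 4 regulators and 3 of 5 fatty acid genes), against 41.1% of all genes. GGGCGG was also in 20, against 38.2%, and CACGTG in 5 (20.8%), against 8.09%. These shares are over all genes with a promoter in that table, tested here or not, while all 24 members were tested. The 250 bases before the start are shown for Hmgcs1 (chr13:119690101-119690350, plus strand) and Sc5d (chr9:42264301-42264550, minus strand), the called sterol enzymes whose stretch overlaps no annotated exon, chosen after the search. Capitals mark TCACNCCAC and CCAAT, which reads ATTGG where it lies on the other strand.
Hmgcs1: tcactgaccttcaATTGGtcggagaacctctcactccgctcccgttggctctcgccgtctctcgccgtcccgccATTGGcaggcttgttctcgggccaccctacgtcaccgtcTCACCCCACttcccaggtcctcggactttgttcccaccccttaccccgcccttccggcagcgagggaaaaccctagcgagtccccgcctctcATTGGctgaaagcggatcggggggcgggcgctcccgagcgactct
Sc5d: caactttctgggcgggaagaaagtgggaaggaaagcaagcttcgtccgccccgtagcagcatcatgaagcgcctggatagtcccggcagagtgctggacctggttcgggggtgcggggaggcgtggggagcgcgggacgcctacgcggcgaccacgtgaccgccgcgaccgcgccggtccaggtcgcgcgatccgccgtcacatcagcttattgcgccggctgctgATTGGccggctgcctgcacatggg
In Hmgcs1 the TCACCCCAC begins 137 bases before the start and ATTGG 237, 176 and 45 bases before it. In Sc5d the single ATTGG begins 24 bases before the start. These matches describe the letters and are not evidence of binding.

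The first enzymes of the sterol route make and use mevalonate. Hmgcs1 (chr13:119690379-119708260), the HMG-CoA synthase of the cytosol, had 180.3, 136 and 146 CPM in DSS DKO libraries, against 230.4, 279.6 and 245 CPM in DSS WT libraries. The groups did not overlap, and the log2 fold change was -0.71 ± 0.18 (SE; adjusted p = 0.02799). Idi1, the isopentenyl pyrophosphate isomerase, had 40.004, 27.5 and 28.3 CPM in DSS DKO libraries, against 49.4, 61.7 and 54.3 CPM in DSS WT libraries, again without overlap (-0.79 ± 0.21, adjusted p = 0.0312). Acat2, the thiolase that condenses acetyl-CoA, had a log2 fold change of -0.68 ± 0.22 without overlap of the groups, and was not called (adjusted p = 0.0628). The mevalonate kinases Mvk (0.00 ± 0.19) and Pmvk (-0.27 ± 0.16), the decarboxylase Mvd (-0.24 ± 0.26) and the farnesyl pyrophosphate synthase Fdps (-0.36 ± 0.21) were not called either. Fdps had 4.98, 4.11 and 4.399 CPM in DSS DKO libraries, against 5.15, 7.18 and 4.94 CPM in DSS WT libraries, and per kb of exon it was the lowest of all 30 members in each group. The calls of Hmgcs1 and Idi1 were lost when DSS DKO replicate 2, DSS DKO replicate 3, DSS WT replicate 2 or DSS WT replicate 3 was left out, with adjusted p from 0.0627 to 0.136. With GC offsets they were also lost (adjusted p = 0.0548 and 0.0678), while Acat2 (-0.68, adjusted p = 0.0429) and Mvd (-0.69, adjusted p = 0.0171) passed. DESeq2 also called Acat2 lower (-0.69, adjusted p = 0.0252).

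The middle steps build and close the sterol ring system. Sqle, the squalene epoxidase and a control point of the route, had 158, 95.4 and 113 CPM in DSS DKO libraries, against 177, 195 and 185 CPM in DSS WT libraries. All DSS DKO libraries were below all DSS WT libraries, with a log2 fold change of -0.60 ± 0.18 (adjusted p = 0.04699). Fdft1, the squalene synthase (-0.24 ± 0.20, adjusted p = 0.463), and Lss, the lanosterol synthase (0.08 ± 0.13, adjusted p = 0.745), were not called, and their groups overlapped. The call of Sqle was lost without any 1 of 7 libraries (DSS DKO replicates 2 and 3, DSS WT replicates 1, 2 and 3, and baseline DKO replicates 1 and 2), with adjusted p from 0.0601 to 0.184, and with only the 6 DSS libraries (adjusted p = 0.0724).

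The last steps, from lanosterol to cholesterol, held the largest differences of the sterol arm. Tm7sf2 (chr19:6062821-6068373), a sterol reductase, had 20.8, 11.99 and 13.8 CPM in DSS DKO libraries, against 34.7, 38.3 and 42.2 CPM in DSS WT libraries, and baseline libraries had 34.7, 42.1 and 47.4 CPM (DKO) and 35.3 and 38.5 CPM (WT). Its log2 fold change was -1.31 ± 0.19 (adjusted p = 0.00221). Dhcr7 (chr7:143823145-143848410), the reductase that makes cholesterol from its last precursor, had 68.1, 49.1 and 62.7 CPM in DSS DKO libraries, against 99.1, 111 and 108 CPM in DSS WT libraries (-0.82 ± 0.14, adjusted p = 0.00403). In both genes the groups were well apart, and both calls held under all 20 other settings tried. Cyp51, the lanosterol demethylase, had 154, 104 and 134 CPM in DSS DKO libraries, against 196, 236 and 217 CPM in DSS WT libraries (-0.73 ± 0.17, adjusted p = 0.0211). Sc5d, a sterol desaturase, had 86.9, 77.7 and 84.6 CPM in DSS DKO libraries, against 109, 126 and 119 CPM in DSS WT libraries (-0.51 ± 0.11, adjusted p = 0.0144). Both were lower in every DSS DKO library than in any DSS WT library, and both calls were lost without DSS DKO replicate 2, DSS WT replicate 2 or DSS WT replicate 3 (adjusted p from 0.0608 to 0.0994). The methyl oxidase Msmo1 (-0.63 ± 0.21, adjusted p = 0.0828) and the dehydrogenase Nsdhl (-0.42 ± 0.15, adjusted p = 0.1004) had no overlap between the groups but were not called. Neither were the reductase Hsd17b7 (0.07 ± 0.14) and the isomerase Ebp (-0.20 ± 0.13), although the groups of Ebp did not overlap. DESeq2 called Msmo1 lower (-0.63, adjusted p = 0.0429).

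Some members overlap another annotated gene, and the strand setting of the counting is not given in the sources used here, so reads of overlapping genes cannot be told apart. Of the 15 members with such a partner, 4 had one that reached more than 10% of their own counts. Beside Tm7sf2 the partner was Vps51 on the same strand. Between DSS DKO and DSS WT it was not called and had the opposite sign (log2 fold change 0.72 ± 0.36, adjusted p = 0.238). In that comparison Akap9 beside Cyp51 (-0.19), Ctsb beside Fdft1 (-0.12) and Rai1 beside Srebf1 (0.47) were not called. Between DSS WT and baseline WT, Vps51 (-1.69, adjusted p = 0.0106) and Rai1 (-2.11, adjusted p = 0.0186) were called lower and Ctsb higher (0.44, adjusted p = 0.0128). Akap9 was not called there. Between DSS DKO and baseline DKO none of the 4 was called, with Vps51 at -1.04 (adjusted p = 0.0633) and Rai1 at -1.60 (adjusted p = 0.0504).

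Of the regulators and carriers Stard4 was called and the SREBP genes were not. Stard4, a carrier that moves cholesterol between membranes, had 292, 270.01 and 329 CPM in DSS DKO libraries, against 359.8, 412 and 406 CPM in DSS WT libraries (-0.40 ± 0.11, adjusted p = 0.0401), and its groups did not overlap. Insig1, itself a known SREBP target, had 115, 88.4 and 103 CPM in DSS DKO libraries, against 121, 154 and 141 CPM in DSS WT libraries, also without overlap, but was not called (-0.44 ± 0.17, adjusted p = 0.114). The genes of the SREBP machinery ranged widely within each DSS group, and their groups overlapped. Srebf2 had 237, 151 and 98.2 CPM in DSS DKO libraries, against 174, 80.5 and 89.8 CPM in DSS WT libraries (0.50 ± 0.34, adjusted p = 0.392). Srebf1 had 71.03, 26.1 and 13.9 CPM in DSS DKO libraries, against 64.7, 19.5 and 19.4 CPM in DSS WT libraries (0.10 ± 0.60, adjusted p = 0.936). Scap had 50.98, 27.4 and 12.2 CPM in DSS DKO libraries, against 32.7, 9.53 and 11.01 CPM in DSS WT libraries (0.77 ± 0.56, adjusted p = 0.418). In all 3 genes replicate 1 was the highest library of its DSS group. The call of Stard4 was lost without DSS DKO replicate 1 or 2 or DSS WT replicate 2 or 3 (adjusted p from 0.0588 to 0.164), with only the 6 DSS libraries (adjusted p = 0.0745) and with GC offsets (adjusted p = 0.0676).

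In each genotype, the DSS library with the highest level of GC-rich genes, replicate 1, was also the highest in these SREBP genes and in Fasn. Srebf1, Fasn, Srebf2 and Scap have transcripts with 59.4%, 58.3%, 57.1% and 55.3% GC, at percentiles 95.6, 92.9, 88.6 and 80.5 of the tested genes. Fasn, the fatty acid synthase, had 191, 58.96 and 18.2 CPM in DSS DKO libraries, against 137, 32.8 and 31.6 CPM in DSS WT libraries, and 264, 302 and 259.6 CPM in baseline DKO and 302 and 219.5 CPM in baseline WT. Its groups overlapped (0.41 ± 0.78, adjusted p = 0.782). With GC offsets the log2 fold change between DSS DKO and DSS WT was 0.01 for Fasn, -0.35 for Srebf1, 0.60 for Scap and 0.20 for Srebf2, none of them called. The sign of Srebf1 turned with this scaling. Among the sterol enzymes Mvd, Mvk, Pmvk and Tm7sf2 lie at percentiles 95.1, 93.2, 81.5 and 80.8 of GC content, and Dhcr7 at 64.2. In Mvd and Mvk replicate 1 was likewise the highest library of each DSS group. In Pmvk and Tm7sf2 it was the highest in DSS DKO and the lowest in DSS WT. The part of the GC deviation in the spread of the SREBP genes was not tested beyond these offsets.

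**Figure D2:**
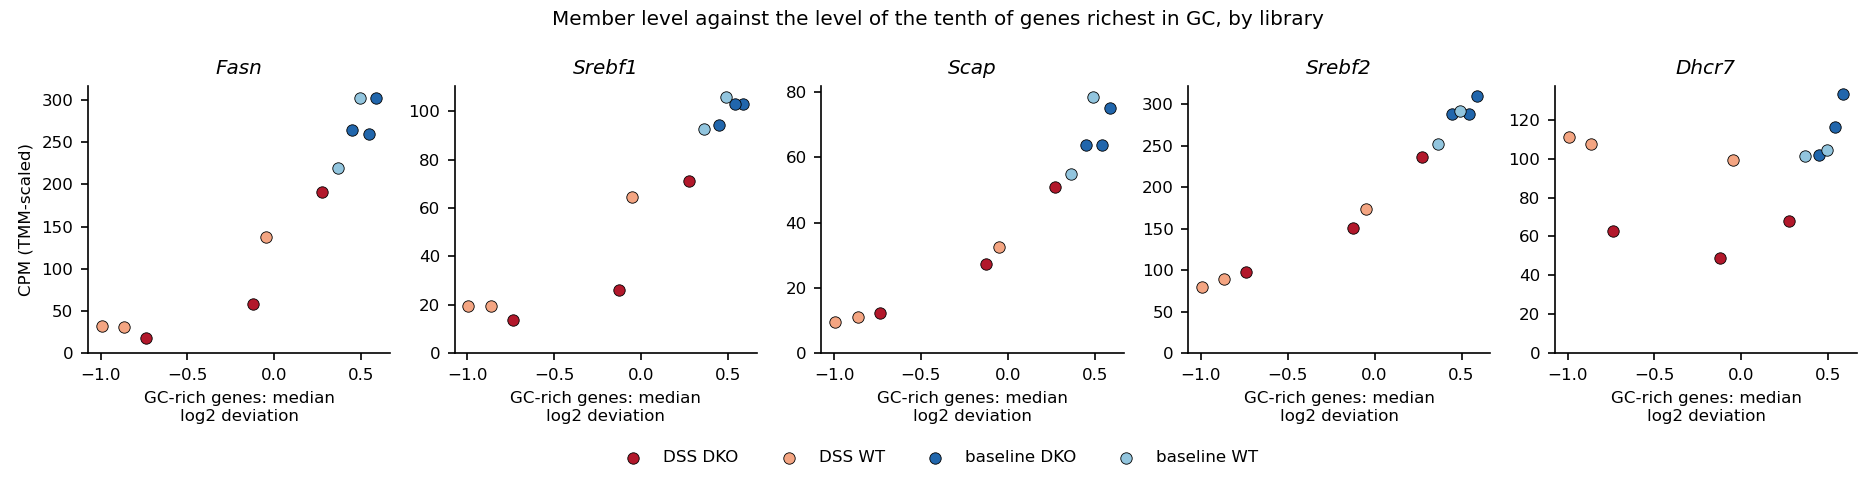
CPM of 5 members (vertical axes, starting at 0) against the median log2 deviation of the tenth of genes richest in GC (horizontal axes), with 1 point per library coloured by group. In Fasn, Srebf1, Scap and Srebf2 the DSS replicate 1 of each genotype, with the highest GC deviation of its group, has the highest CPM of its group, and in Fasn all 6 DSS libraries (18.2 to 191 CPM) lie below the 5 baseline libraries, while in Dhcr7 the 3 DSS DKO libraries (49.1 to 68.1 CPM) lie below the 3 DSS WT libraries (99.1 to 111 CPM).

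In the fatty acid arm the largest log2 fold changes were those of 2 desaturases. Scd1 (chr19:44394455-44407879) and Scd2 (chr19:44293674-44306864) encode stearoyl-CoA desaturases, which put the first double bond into saturated fatty acids. Scd1 had 33.6, 11.5 and 23.3 CPM in DSS DKO libraries, against 69.4, 95.9 and 76.6 CPM in DSS WT libraries (-1.82 ± 0.31, adjusted p = 0.006596). Scd2 had 776, 162 and 233 CPM in DSS DKO libraries, against 1375, 1450.2 and 1222 CPM in DSS WT libraries (-1.79 ± 0.49, adjusted p = 0.0482). The groups of both genes were far apart, but the 3 DSS DKO libraries of Scd2 also differed widely among themselves, with a mean of 390.4 ± 336 CPM, against 1349 ± 116 CPM in DSS WT (SD, n = 3 each). Scd2 had the highest level per kb of exon of all 30 members in each group, and 8.98 to 20.7 times the level of Scd1 per kb in single libraries. The call of Scd1 held under all 20 other settings, and that of Scd2 was lost in 11, among them without each of 10 single libraries (adjusted p from 0.0519 to 0.113). Reads that the counting could have split with Scd3 (4 to 32 counts) and Scd4 (6 to 72 counts) are few.

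Acly, the ATP citrate lyase that supplies acetyl-CoA to both arms, had 447, 263 and 271 CPM in DSS DKO libraries, against 626, 616 and 531 CPM in DSS WT libraries (-0.85 ± 0.19, adjusted p = 0.0137). Acaca, the acetyl-CoA carboxylase, had 75.2, 50.98 and 66.04 CPM in DSS DKO libraries, against 86.6, 103 and 99.4 CPM in DSS WT libraries (-0.59 ± 0.15, adjusted p = 0.0252). Elovl6, the elongase of long-chain saturated fatty acids, had 99.5, 107 and 98.3 CPM in DSS DKO libraries, against 137, 158 and 162 CPM in DSS WT libraries (-0.59 ± 0.10, adjusted p = 0.00559). In these 3 genes no DSS DKO library reached a DSS WT library, and the call of Elovl6 held under all 20 other settings. Me1, the cytosolic malic enzyme that yields NADPH, had 13.4, 12.6 and 18.6 CPM in DSS DKO libraries, against 22.4, 23.7 and 21.8 CPM in DSS WT libraries, without overlap, and was not called (-0.61 ± 0.21, adjusted p = 0.0865). Leaving out DSS DKO replicate 2 ended the call of Acly, at an adjusted p of 0.0727. That of Acaca was lost without DSS DKO replicate 2, DSS WT replicate 2 or DSS WT replicate 3 (adjusted p from 0.0804 to 0.103) and with only the 6 DSS libraries (adjusted p = 0.0556).

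**Figure D3:**
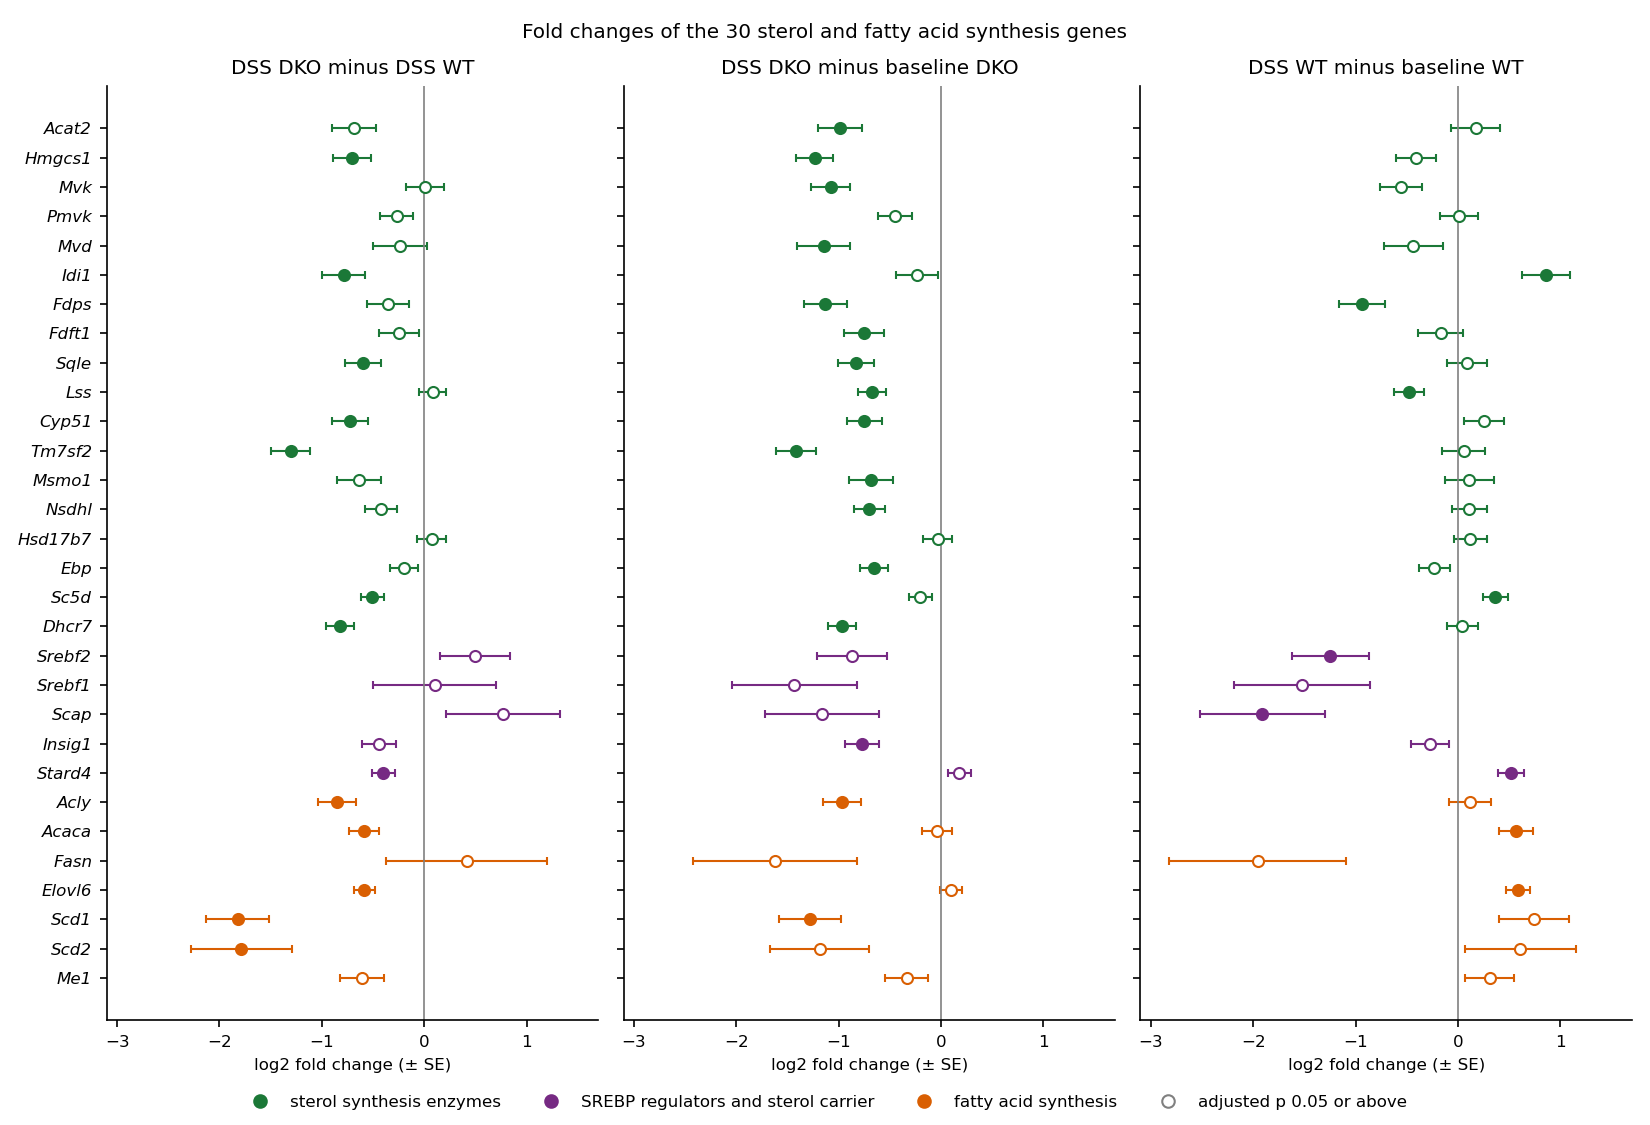
Log2 fold changes (horizontal axes, with SE as whiskers) of the 30 members in 3 comparisons, ordered by step of the route and coloured by arm, with filled points for an adjusted p under 0.05. After DSS, DKO minus WT has filled points only below 0 (13 genes), DSS DKO minus baseline DKO only below 0 (17 genes), and DSS WT minus baseline WT on both sides (5 above and 4 below).

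At baseline no member was called between the genotypes. By edgeR 0 of the 30 members were called between baseline DKO and baseline WT, beside 0.026% of all tested genes (0.0104% higher and 0.0156% lower). Of the 30, 2 had an unadjusted p under 0.05 (Mvk and Nsdhl, both higher in baseline DKO), and DESeq2 called 0. The median log2 fold change was 0.25 for the sterol enzymes, 0.02 for the regulators and carriers and 0.04 for the fatty acid genes, and 0.01 over all tested genes. The sterol median was 0.07 without baseline WT replicate 1 and 0.52 without baseline WT replicate 2. The largest log2 fold change was that of Mvk (0.53 ± 0.21), with 40.3, 44.7 and 58.8 CPM in baseline DKO and 31.6 and 34.8 CPM in baseline WT. For Dhcr7 (0.19 ± 0.15) and Scd1 (0.20 ± 0.34) the genotypes were likewise not called apart, with 50.3, 59.1 and 56.6 CPM for Scd1 in baseline DKO and 49.6 and 46.6 CPM in baseline WT. In 6 of the 30 members every baseline DKO library lay above every baseline WT library and in 0 below, while 9.92% and 10.3% of all tested genes did so. The 2 baseline WT libraries were far apart in the sterol arm, with summed levels of the 18 enzymes of 330.1 and 462 CPM per kb of exon.

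Against untreated mice of the same genotype, most sterol enzymes were lower after DSS in DKO. Of the 18, 14 were called lower in DSS DKO than in baseline DKO and 0 higher (0 also at an unadjusted p under 0.05 and by DESeq2), beside 11% and 12.6% of all tested genes, and the 4 not called were Pmvk, Idi1, Hsd17b7 and Sc5d. DESeq2 also called Pmvk lower (-0.46, adjusted p = 0.0382). With GC offsets Sc5d was called too (-0.46, adjusted p = 0.00635), against -0.20 without them. Of the epithelial markers 4 of 10 were lower in the same comparison, and of the goblet cell markers 8 of 10. Of 10 crypt stem cell markers 5 were lower and 1 higher, and of 10 absorptive colonocyte markers 4 lower and 3 higher. Of 15 cell cycle genes 2 were lower and 1 higher. Neutrophil (7 of 10), macrophage (5 of 10) and T and NK cell markers (1 of 11) were called only higher. The part of these cells was not tested. In 23 of the 30 members every DSS DKO library lay below every baseline DKO library and in 0 above, while 19.6% and 20.4% of all tested genes did so. The median log2 fold change of the sterol enzymes was -0.75, against 0.01 over all genes. The largest were those of Tm7sf2 (-1.41 ± 0.19, adjusted p = 0.000599) and Hmgcs1 (-1.23 ± 0.18, adjusted p = 0.000912), which had 180.3, 136 and 146 CPM in DSS DKO and 299, 404 and 385 CPM in baseline DKO. Insig1 was called lower among the regulators (-0.77 ± 0.17, adjusted p = 0.00716). Srebf2 (-0.87 ± 0.34), Srebf1 (-1.43 ± 0.61) and Scap (-1.16 ± 0.56) were lower in every DSS DKO than in every baseline DKO library and were not called by edgeR. All 3 passed without DSS DKO replicate 1 (adjusted p from 0.00812 to 0.0285), and DESeq2 called Srebf2 (adjusted p = 0.0259). Acly (-0.97 ± 0.19, adjusted p = 0.00368) and Scd1 (-1.28 ± 0.31, adjusted p = 0.0146) were called among the fatty acid genes. Scd2 had a log2 fold change of -1.19 ± 0.49 and Fasn of -1.62 ± 0.80, and neither was called by edgeR, while DESeq2 called Scd2 (adjusted p = 0.0176) and both passed without DSS DKO replicate 1 (adjusted p = 3.22e-05 for Scd2 and 0.0224 for Fasn). Acaca (-0.04 ± 0.15) and Elovl6 (0.10 ± 0.10) lay near their baseline DKO level. The calls of Fdft1 and Msmo1 were lost without single libraries (Fdft1 without DSS DKO replicate 2 or baseline DKO replicate 3, Msmo1 without DSS DKO replicate 2 or 3, DSS WT replicate 3 or baseline DKO replicate 2 or 3, with adjusted p from 0.0572 to 0.133), that of Scd1 without baseline DKO replicate 2 (adjusted p = 0.0519) and that of Mvk with GC offsets (adjusted p = 0.0576).

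In WT the same comparison went both ways. Of the sterol enzymes Idi1 (0.86 ± 0.24, adjusted p = 0.0167) and Sc5d (0.37 ± 0.13, adjusted p = 0.041) were called higher in DSS WT than in baseline WT, and Fdps (-0.94 ± 0.23, adjusted p = 0.00862) and Lss (-0.48 ± 0.15, adjusted p = 0.0284) lower, beside 33.4% of all tested genes, 16.9% higher and 16.5% lower. Stard4 was higher (0.52 ± 0.13, adjusted p = 0.00965), and Srebf2 (-1.24 ± 0.38, adjusted p = 0.0311) and Scap (-1.91 ± 0.61, adjusted p = 0.0389) lower. Among the fatty acid genes Acaca (0.57 ± 0.17, adjusted p = 0.0223) and Elovl6 (0.59 ± 0.12, adjusted p = 0.00361) were higher and none lower (1 at an unadjusted p under 0.05, Fasn, and 0 by DESeq2). Fasn (-1.96 ± 0.87, adjusted p = 0.111) and the regulator Srebf1 (-1.52 ± 0.66, adjusted p = 0.106) were not called. In both, every DSS WT library lay below every baseline WT library, while 31.6% of all tested genes did so. Both passed without DSS WT replicate 1 (adjusted p = 0.0268 for Fasn and 0.00945 for Srebf1) and without DSS DKO replicate 1 or 3 (0.0262 to 0.0454). Median log2 fold changes were 0.05 for the sterol enzymes, -1.24 for the regulators and carriers and 0.57 for the fatty acid genes. The sterol median was -0.14 without baseline WT replicate 1, 0.23 without baseline WT replicate 2 and -0.04 with GC offsets, and the fatty acid median was 0.30 with GC offsets. Each of these 9 calls was lost with GC offsets or without 1 library. With GC offsets Acaca (adjusted p = 0.1604) and Elovl6 (adjusted p = 0.0799) were not called, Idi1 (adjusted p = 0.2002) and Stard4 (adjusted p = 0.188) were lost, and Sc5d had the opposite sign and was not called (-0.02). Mvd turned to 0.54 (adjusted p = 0.04195), against -0.44 as counted, and Mvk to 0.34 (not called), against -0.55, while Hmgcs1 (-0.81, adjusted p = 0.00717) and Insig1 (-0.50, adjusted p = 0.0371) were called lower. Without baseline WT replicate 1 the calls of Idi1, Sc5d, Srebf2, Scap and Stard4 were lost (adjusted p from 0.0865 to 0.279), without baseline WT replicate 2 those of Fdps, Lss, Srebf2, Scap and Acaca (0.08304 to 0.272), and without DSS WT replicate 2 or 3 those of Sc5d, Srebf2, Scap and Acaca (0.0577 to 0.126). Single libraries also ended the calls of Idi1 (DSS WT replicate 2), Lss (DSS WT replicates 1 and 3), Sc5d (DSS DKO replicate 2 and baseline DKO replicate 2) and Scap (DSS DKO replicate 2 and baseline DKO replicates 2 and 3), with adjusted p from 0.05103 to 0.0895. Of 10 epithelial markers 2 were lower and 1 higher in this comparison, and of 10 crypt stem cell markers 2 lower and 2 higher. Absorptive colonocyte (4 of 10) and goblet cell markers (5 of 10) were called only lower. Cell cycle (7 of 15), T and NK cell (9 of 11), neutrophil (2 of 10) and macrophage markers (5 of 10) were called only higher. The part of these cells was not tested.

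**Figure D4:**
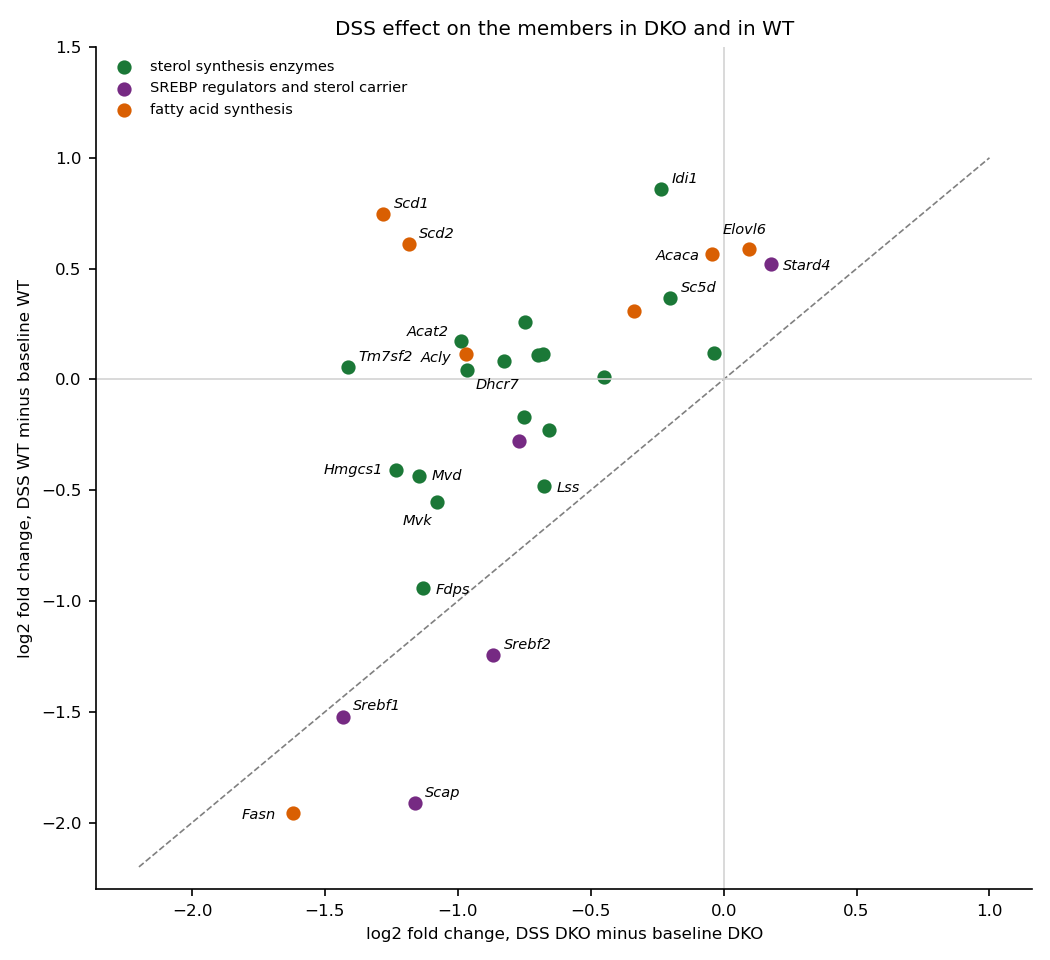
Log2 fold change of the 30 members in DSS DKO minus baseline DKO (horizontal axis) against DSS WT minus baseline WT (vertical axis), with 1 point per gene coloured by arm and a dashed line where both are equal. All 18 sterol enzymes lie above the line, among them Tm7sf2 (-1.41 and 0.06) and Dhcr7 (-0.96 and 0.04), while Fasn and the regulators Srebf2, Srebf1 and Scap lie near or below it.

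The difference between the DSS effects in DKO and in WT was tested as an interaction. Tm7sf2 (-1.47 ± 0.29, adjusted p = 0.0304) and Dhcr7 (-1.01 ± 0.20, adjusted p = 0.0333) were called, both with a more negative effect in DKO, beside 1.57% of all tested genes called, 0.794% in that direction and 0.773% in the other. All 18 sterol enzymes had a negative interaction, with a median of -0.75 against 0.02 over all genes. The median was -0.49 without baseline WT replicate 1 and -0.99 without baseline WT replicate 2. Among the fatty acid genes 0 were called by edgeR, 5 had an unadjusted p under 0.05 and DESeq2 called 3, with Scd1 at -2.03 ± 0.46 (adjusted p = 0.0579) and Acly at -1.09 ± 0.28 (adjusted p = 0.0699). Of the regulators and carriers 0 were called, with 0 at an unadjusted p under 0.05 and 0 by DESeq2. DESeq2 called 8 sterol enzymes. Both calls were lost without DSS DKO replicate 2, DSS WT replicate 2 or 3, baseline DKO replicate 2 or 3, or either baseline WT replicate, with adjusted p from 0.0616 to 0.149, and with GC offsets Mvd, Acly and Scd1 passed as well.

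Both arms were also described by their summed level per kb of exon. The 18 sterol enzymes summed to 318, 236 and 260 CPM per kb in DSS DKO (271 ± 42.1, SD, n = 3), against 365, 415 and 376 in DSS WT (385 ± 25.9, n = 3). In baseline DKO they summed to 474 ± 62.3 (n = 3) and in baseline WT to 396 ± 93.2 (n = 2). The 7 fatty acid genes summed to 274, 110 and 124 CPM per kb in DSS DKO (170 ± 91.0), against 429, 441 and 379 in DSS WT (417 ± 32.9). In baseline DKO their sum was 344 ± 39.9 and in baseline WT 323 ± 22.2. DSS DKO was below DSS WT in both sums, without overlap. The ratio of the sterol to the fatty acid sum was 1.16, 2.14 and 2.09 in DSS DKO and 0.851, 0.939 and 0.992 in DSS WT, and 1.35, 1.18 and 1.63 in baseline DKO and 0.975 and 1.503 in baseline WT. Among the 3 DSS DKO libraries replicate 1, which had the highest Scd2 of them, had the ratio closest to DSS WT. Scd2 and Acly were the highest of all members per kb of exon. Scd2 had means of 71.5 CPM per kb in DSS DKO and 246.9 in DSS WT, and Acly 61.9 and 112. The fatty acid sum and the ratio therefore follow mainly these genes, Scd2 most. Fasn went the other way, with 8.17 in DSS DKO and 6.14 in DSS WT.

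**Figure D5:**
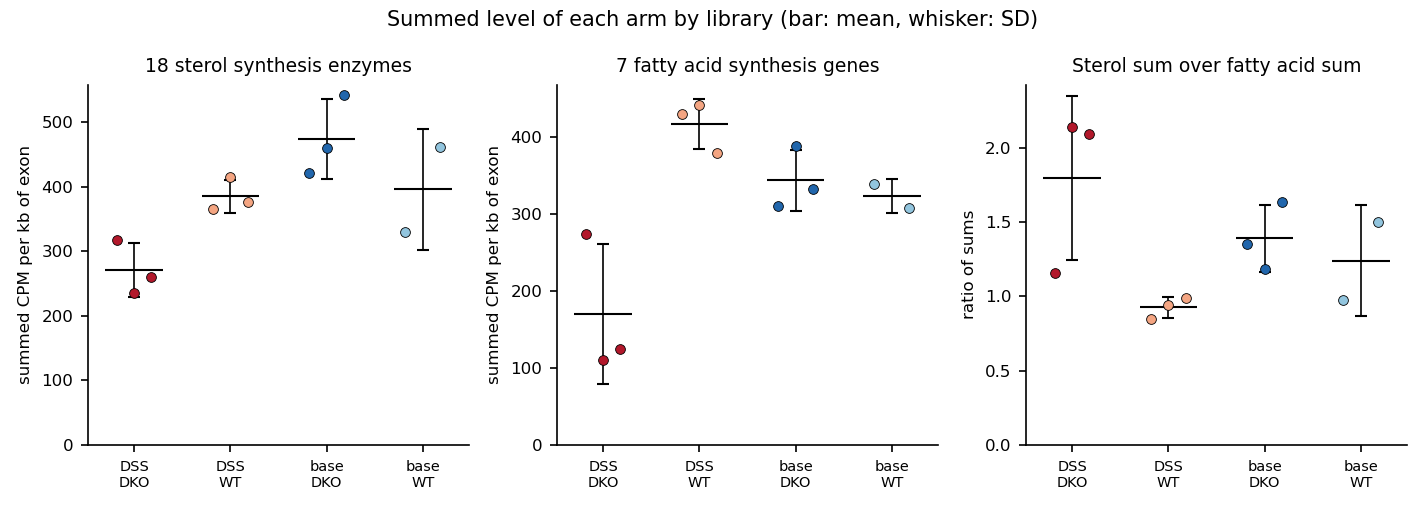
Summed level of the 18 sterol enzymes and of the 7 fatty acid genes in CPM per kb of exon, and the ratio of these sums (vertical axes, starting at 0), with 1 point per library, the group mean as a bar and the SD as a whisker. Both sums are lower in every DSS DKO library than in every DSS WT library, and the ratio is 2.09 and 2.14 in DSS DKO replicates 3 and 2, against at most 0.992 in DSS WT.

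Other genes of the same pathways were described from companion lists, whose counts stand beside 5.98% of all tested genes called lower and 5.26% called higher. Of 4 further sterol genes tested, Lbr, a nuclear envelope protein with the same reductase activity as Tm7sf2, was lower in DSS DKO than in DSS WT (-0.44 ± 0.11, adjusted p = 0.0244). Ggps1, which makes geranylgeranyl pyrophosphate, was not called (-0.15 ± 0.11). Of 10 genes of SREBP processing and sterol sensing 1 was lower, the ubiquitin ligase gene Rnf145 (-0.68 ± 0.12, adjusted p = 0.00518), and 9 were not called. Of 25 further fatty acid genes tested 10 were lower and 15 were not called. The lower ones included Fads1, a desaturase of polyunsaturated fatty acids, with 10.3, 5.95 and 10.001 CPM in DSS DKO libraries, against 31.98, 27.6 and 27.4 CPM in DSS WT libraries (-1.73 ± 0.21, adjusted p = 0.000817), the acetyl-CoA synthetase Acss2 (-0.63 ± 0.11, adjusted p = 0.00497) and the elongase Elovl7 (-0.61 ± 0.11, adjusted p = 0.00538).

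Genes that take up, store or release lipid were mostly not called, and those called were higher in DSS DKO than in DSS WT. Of 16 genes of sterol uptake, storage and efflux 3 were higher in DSS DKO than in DSS WT and 13 were not called, with a median log2 fold change of 0.02, beside 5.26% of all tested genes called higher. Soat2, which esterifies cholesterol, had 4.09, 6.4 and 4.603 CPM in DSS DKO libraries, against 2.35, 1.79 and 2.202 CPM in DSS WT libraries (1.25 ± 0.26, adjusted p = 0.0108). Npc1l1, the intestinal cholesterol importer, had 1.46, 0.608 and 1.996 CPM in DSS DKO libraries, against 0.274, 0.336 and 0.4404 CPM in DSS WT libraries (1.94 ± 0.47, adjusted p = 0.0213), and Npc1, which exports cholesterol from lysosomes, had 48.2, 65.9 and 109 CPM in DSS DKO libraries, against 37.6, 43.6 and 39.8 CPM in DSS WT libraries (0.88 ± 0.23, adjusted p = 0.0343). The groups did not overlap in these 3 genes, and Soat2 and Npc1l1 were at low levels. Of 11 genes of glycerolipid assembly 1 was higher, the triglyceride synthase gene Dgat2 (0.62 ± 0.13, adjusted p = 0.0103), and 10 were not called, a share near that of all tested genes.

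Markers of several cell types differed between the same groups, beside 5.98% of all tested genes called lower and 5.26% called higher. The 10 epithelial markers, among them no called gene, had log2 fold changes between -0.36 and 0.46, and their summed level was 16081 to 16706 CPM in DSS DKO and 16755 to 18160 CPM in DSS WT. Of 15 cell cycle genes 9 were lower in DSS DKO, with sums of 649 to 1113 CPM in DSS DKO, against 1340 to 1506 CPM in DSS WT, and of 10 crypt stem cell markers 4 were lower. Of 10 absorptive colonocyte markers 5 were higher and 1 lower, and of 10 goblet cell markers 2 were lower, with sums of 4509 to 4796 CPM in DSS DKO, 7206 to 8755 CPM in DSS WT and 35700.3 to 41654 CPM in baseline libraries. T and NK cell markers summed to 45.3 to 87.6 CPM in DSS DKO and 154 to 168 CPM in DSS WT (9 of 11 lower), and neutrophil markers to 175 to 252 CPM in DSS DKO and 64.4 to 76.2 CPM in DSS WT (5 of 10 higher). Adipocyte markers summed to 6.33 to 10.9 CPM in DSS DKO and 5.21 to 6.15 CPM in DSS WT, and the 4 tested had log2 fold changes of 0.09 to 0.75 and were not called. Of 10 macrophage markers 1 was lower, of 9 fibroblast markers 3 were higher and 1 lower, and no gene was called among 7 B and plasma cell, 5 endothelial and 5 smooth muscle markers tested. No marker in these lists was at 0 in all libraries. The part of these cells in the lower sterol and fatty acid genes was not tested.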

How the data were processed

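RNA was enriched for poly(A) with oligo(dT) and made into libraries with an NEBNext Ultra II kit, per the labels' protocols. STAR and the build mm10 are named in the submitters' processing notes, while no source used here gives STAR's version, the counter, its strand setting or the annotation. The authors deposited 1 table of raw counts per gene for 11 libraries. From these counts, filterByExpr (minimum count 10) kept 19267 of 54513 genes, which hold at least 99.9% of each library's counts. edgeR 4.0.16 (R 4.3.3) was run with TMM scaling, 4 group means over all libraries and robust quasi-likelihood F-tests, with Benjamini-Hochberg adjusted p over all tested genes and a common BCV of 0.234. The scripts were tested on simulated data. DESeq2 1.42.0 and the other settings are given at the end.

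Members were selected by symbol, and each is named. Of each companion list up to 3 genes per direction with the lowest adjusted p among those called between DSS DKO and DSS WT are named, as are further sterol genes tested, some of which are not reported here. Promoters were to be shown for called members that hold TCACNCCAC, and Sc5d was added after the search. Members, companion lists and marker lists were chosen with earlier results of these data known. GC content and exon lengths come from GENCODE M21 (GRCm38). Intervals cover the spread between libraries, and replicate pairs differed by more than sampling noise, with a chi-square of 14.4 to 788 per degree of freedom. The baseline DKO pairs had 233 to 788 and all others at most 154. Rn18s-rs5, an 18S ribosomal RNA sequence, held 23%, 8.46% and 0.315% of the counts in baseline DKO replicates 1 to 3. It held 1.59% and 0.628% in baseline WT and at most 0.25% in DSS libraries. Without it the sterol median in DSS DKO against baseline DKO was -0.78, against -0.75 with it.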

Additional observations from a re-analysis of the deposited data

Results flagged for a closer look

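Both results below were singled out because the effect of DSS differed between the genotypes in a test of the difference itself, edgeR's quasi-likelihood test of the interaction over 19267 genes. For Tm7sf2 the DSS effect in DKO minus that in WT was -1.47 on the log2 scale (adjusted p = 0.0304). For Dhcr7 it was -1.01 (adjusted p = 0.0333). Of 19 other settings of this test, 7 lost the call of Tm7sf2 and 8 that of Dhcr7, mostly those without 1 library. The adjusted p then reached 0.149 for Tm7sf2 and 0.138 for Dhcr7. Sex-linked genes differ between all DSS and all baseline libraries, so each DSS effect cannot be told apart from sex. Reads of Tm7sf2 cannot be told apart from those of the overlapping Vps51, whose interaction was 0.65 (adjusted p = 0.563).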

How the results depend on the processing

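Calls between DSS DKO and DSS WT numbered 2165 over all genes, 7 among the sterol enzymes and 5 among the fatty acid genes. They were 691 to 3064, 2 to 9 and 2 to 5 without 1 library, 1372, 6 and 3 with only the 2 groups compared, and 2236, 5 and 5 with the replicate number as a block, which lost Idi1 (adjusted p = 0.0505) and Sqle (adjusted p = 0.0644). At baseline 5 genes were called, 20 by DESeq2, 79 with no filter on low counts, 3 with the block and 1 to 5 without 1 library. Between DSS WT and baseline WT, 6432 genes were called (2775 to 7378 without 1 library), 4 sterol enzymes (2 to 5) and 2 fatty acid genes (1 to 5, with 5 under no filter, 4 with only the 2 groups, and 0 with GC offsets with or without the block). There Sc5d turned to -0.024 with GC offsets and -0.034 with GC offsets and the block. Between DSS DKO and baseline DKO, 4545 genes were called (2605 to 5788 without 1 library) and 2 fatty acid genes (1 to 4, with 4 under no filter and 4 with GC offsets and the block). The block added Fasn (adjusted p = 0.0233), Srebf2 (0.0156), Srebf1 (0.019) and Scap (0.0261) there. Between DSS WT and baseline WT the block added Fasn (adjusted p = 0.0497) and Srebf1 (0.0461). The interaction had 302 calls, against 1375 by DESeq2, 1469 with no filter, 517 with GC offsets, 617 with GC offsets and the block, and 2 to 1498 without 1 library. Its 2 sterol calls became 8, 9 and, with the block, 1, which lost Dhcr7 at an adjusted p of 0.0532 (0 to 6 without 1 library), and its 0 fatty acid calls 3 by DESeq2, 3 with no filter, 1 with the block, 2 with GC offsets, 1 with GC offsets and the block and 0 to 4 without 1 library. With no filter the median of all genes shifted to -0.22 between DSS WT and baseline WT and to 0.12 in the interaction. Tm7sf2, Dhcr7, Elovl6 and Scd1 kept their calls between DSS DKO and DSS WT under all 20 alternatives. The GC offsets were added after the data were seen. The labels do not say whether same-numbered libraries were paired or handled together. Of 15 such pairs, 4 had a correlation of their deviations above 0.1 (from -0.07 to 0.30). The pairs of DSS DKO and DSS WT had 0.30, 0.02 and 0.20 for replicates 1 to 3. Across these 2 groups, 3 of 3 DSS DKO and 2 of 3 DSS WT libraries correlated best with their own number. Whether a pairing or a shared batch lies behind this was not tested. The cause of the changes in the calls was not tested. With 2 or 3 libraries a group, small differences could not be detected.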
